A study of Mus musculus with 78 samples.

Results

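The Myc network is a set of transcription factor genes whose proteins compete for 1 shared partner, MAX. It is described here in the cerebral arteries of mice as the 7 protein-coding genes Myc, Max, Mnt, Mxd1, Mxi1, Mxd4 and Mga, of 54532 genes in the table. Myc was chosen by its measured response to carotid stenosis, which had opposite signs under 2 diets, and its partners were then added by name. The stenosis values below therefore describe the choice and carry no test. All 7 genes had at least 1 FPKM (fragments per kilobase of gene, scaled to depth) in at least 3 libraries, as did 15707 genes in all.

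All mice were male, wild type and C57Bl6. For 3 months they were kept on intermittent fasting (IF) or had food at all times (ad libitum, AL). They then had surgery to narrow the carotid artery on either side (bilateral carotid artery stenosis, BCAS), or sham surgery. The groups were BCAS IF (20 libraries), sham IF (19), BCAS AL (19) and sham AL (20), each spread over days 1, 7, 14, 21 and 30 after surgery. Each group had 4 libraries per day, with 3 in sham IF on day 7 and in BCAS AL on day 1. Day 7 appears in the group labels and not in the treatment text. The sources used here give neither the age nor the fasting schedule. No label ties a library to an animal of its own, so the p-values reflect the spread between libraries, part of which may be technical. In such bulk RNA, fewer cells of a type and less RNA per cell cannot be told apart.

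Depth ran from 14601572 to 25944175 fragments per library. Smooth muscle markers dominated, and all 6 of them together summed to between 2105 and 8745 FPKM per library, while the 6 neuron markers summed to between 1.85 and 17.7 FPKM. In 3 libraries, genes under 300 bases held over 0.2% of fragments: replicates 2 and 4 of sham AL on day 7, and replicate 2 of BCAS AL on day 1. Results that move without these 3 libraries are given both ways. Differences are on the log2(FPKM + 1) scale, on which a change in a low gene such as Myc appears smaller than its fold, and adjusted p-values come from limma over all 15707 genes, with a threshold of 0.05.

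MYC and MAX proteins form a dimer that binds the E-box, a short DNA motif, and raises transcription of genes for ribosome assembly, metabolism and cell growth. MNT, MXD1, MXI1 and MXD4 also pair with MAX and bind the same motif, but recruit the SIN3 corepressor and lower transcription. MGA pairs with MAX inside a Polycomb complex, PRC1.6. Myc is also an immediate early gene, and in arteries growth factors and injury are known to induce it in smooth muscle.

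The E-box CACGTG reads the same on both strands, and it was searched in the RefSeq promoter windows of GRCm38.p6, which run from 250 bases before a start site to 50 bases after it. Windows existed for 6 of the 7 members, Max, Mnt, Mxd1, Mxi1, Mxd4 and Mga. Of these, 3 held 1 E-box, which is 50% of the 6, beside 8.91% of 17492 protein-coding genes. A match is a description of letters and not a measured binding site. The 3 windows that hold the motif are shown. Their genes did not go 1 way with fasting below: Mnt rose, Mxd4 rose after BCAS but not after sham, and Max fell slightly after BCAS. A link between the motif and fasting was not tested. Capitals mark the E-box, and the start site is base 251.
Mnt, chr11:74830674-74830973, plus strand: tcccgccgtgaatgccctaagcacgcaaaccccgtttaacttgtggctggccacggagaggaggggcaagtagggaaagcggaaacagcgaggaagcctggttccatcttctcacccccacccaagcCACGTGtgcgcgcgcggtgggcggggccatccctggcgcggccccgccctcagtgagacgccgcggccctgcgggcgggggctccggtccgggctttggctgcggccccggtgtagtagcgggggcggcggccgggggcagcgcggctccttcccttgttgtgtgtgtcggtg
Mxd4, chr5:34187661-34187960, minus strand: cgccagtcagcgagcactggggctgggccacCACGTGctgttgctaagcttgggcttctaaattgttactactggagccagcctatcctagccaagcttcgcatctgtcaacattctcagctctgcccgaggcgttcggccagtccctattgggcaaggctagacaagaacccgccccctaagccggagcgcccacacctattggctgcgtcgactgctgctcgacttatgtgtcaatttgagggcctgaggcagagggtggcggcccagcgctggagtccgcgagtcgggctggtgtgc
Max, chr12:76962199-76962498, minus strand: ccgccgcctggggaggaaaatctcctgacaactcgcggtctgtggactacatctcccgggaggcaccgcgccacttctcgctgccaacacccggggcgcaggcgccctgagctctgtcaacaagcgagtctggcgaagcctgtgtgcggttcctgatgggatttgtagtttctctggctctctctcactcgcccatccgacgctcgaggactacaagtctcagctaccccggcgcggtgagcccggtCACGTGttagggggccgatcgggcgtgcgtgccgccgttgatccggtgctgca
The motif fills bases 128 to 133 in the Mnt window, bases 32 to 37 in the Mxd4 window and bases 248 to 253 in the Max window, where it spans the start site. These letters were not found in the windows of Mxd1, Mga or the 3 start sites of Mxi1.

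FPKM is a level per kilobase, so it can be compared between members. Max, the shared partner, had the highest level at a mean of 19.9 FPKM over the 78 libraries, above 80.8% of 12452 protein-coding genes that passed the filter. Mxi1 followed at 15.9 FPKM, Mxd4 at 9.21 FPKM and Mnt at 8.34 FPKM. Mga, Mxd1 and Myc were low, at 2.62, 2.40 and 2.12 FPKM. Myc lay above 22.4% of those genes and rested on 55 to 239 fragments per library.

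The member genes lie at separate places in the genome. The deposited table, whose positions equal those of GRCm38 annotation for 6 of the 7 genes, puts Myc at chr15:61985391-61990374 on the plus strand, Max at chr12:76937269-76962201 on the minus strand and Mnt at chr11:74830920-74845725 on the plus strand. Mxd1 is at chr6:86647042-86669161 and Mxd4 at chr5:34173883-34187720, both on the minus strand. Mga is at chr2:119897228-119969581 on the plus strand, and Mxi1, whose positions differ from that annotation, is listed at chr19:53310506-53375810 on the plus strand.

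Between libraries of 1 group, the coefficient of variation of Myc was 18.9%, where counting error alone gives 9.74% at its depth. The other members varied less, from 7.30% for Mxi1 to 11.3% for Mga. Across the 20 groups the mean level of Myc spanned a factor of 1.90, with the highest at 3.04 FPKM in BCAS IF on day 7 and the lowest at 1.6 FPKM in sham IF on day 30. In that order all 19 steps between neighbouring groups were smaller than the pooled SD of 0.401 FPKM. Mnt spanned a factor of 1.63, the next widest, with 18 of 19 steps below its SD. Max spanned the least of the 7, a factor of 1.19.

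In fasted mice, Myc was higher after stenosis than after sham surgery, at 2.40 ± 0.592 FPKM in BCAS IF (SD, n = 20) and 1.84 ± 0.386 FPKM in sham IF (n = 19). In freely fed mice it was lower, at 1.92 ± 0.266 FPKM in BCAS AL (n = 19) and 2.31 ± 0.484 FPKM in sham AL (n = 20). The mean of the 5 daily differences was 0.26 ± 0.06 (SE) under IF and -0.17 ± 0.06 under AL on the log2 scale, and these are the differences that chose the gene.

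Day 7 held the widest gap. Myc stood at 2.62, 2.76, 2.84 and 3.93 FPKM in BCAS IF on that day, against 2.38, 1.75 and 0.945 FPKM in sham IF. The same day gave 1.64, 2.20, 1.73 and 2.09 FPKM in BCAS AL, against 2.33, 2.50, 3.15 and 2.68 FPKM in sham AL. Neither pair overlapped, in opposite directions, where 6.58% of genes under IF and 4.74% under AL did not overlap on that day. The log2 differences were 0.61 ± 0.14 under IF and -0.33 ± 0.13 under AL.

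The extremes of all 78 Myc values both lay on day 7 in fasted mice. The lowest, sham IF replicate 3, had 0.945 FPKM from 55 fragments, with an exact 95% Poisson interval of 0.712 to 1.23 FPKM. The highest, BCAS IF replicate 4, had 3.93 FPKM from 239 fragments, with an interval of 3.45 to 4.46 FPKM. These intervals cover counting error only. Leaving out single libraries put the day 7 difference under IF between 0.39 and 0.79, with the largest moves on leaving out sham IF replicate 1 or replicate 3. Counted from recovered fragments, the same difference was 1.04.

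On day 30, Myc had 2.43, 2.47, 2.55 and 1.52 FPKM in BCAS IF, against 1.53, 1.78, 1.70 and 1.39 FPKM in sham IF. Freely fed mice on day 30 had 2.61, 1.63, 1.90 and 1.73 FPKM in BCAS AL, against 3.6, 1.71, 2.41 and 2.40 FPKM in sham AL. Under IF, 3 of 4 BCAS libraries lay above every sham library. Under AL the ranges overlapped, and 3 of 4 BCAS libraries lay below 3 of 4 sham libraries. The differences were 0.31 ± 0.13 under IF and -0.23 ± 0.13 under AL.

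On day 1, BCAS IF libraries had 3.13, 2.85, 2.85 and 2.12 FPKM of Myc, against 2.72, 1.61, 1.78 and 2.19 FPKM in sham IF, a difference of 0.29 ± 0.13 with ranges that overlapped. Freely fed mice on day 1 differed by 0.02 ± 0.14, with 1.93, 2.30 and 2.28 FPKM in BCAS AL against 2.52, 2.46, 1.82 and 1.76 FPKM in sham AL. Day 14 was the flattest. Its values were 1.38, 2.35, 2.26 and 2.06 FPKM in BCAS IF, 2.04, 1.83, 1.91 and 2.07 FPKM in sham IF, 1.70, 1.80, 1.96 and 1.70 FPKM in BCAS AL, and 1.90, 1.89, 1.93 and 1.98 FPKM in sham AL. The differences there were 0.01 ± 0.13 under IF and -0.07 ± 0.13 under AL.

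On day 21, Myc had 2.07, 1.72, 1.77 and 2.40 FPKM in BCAS IF, against 1.70, 2.08, 1.53 and 2.06 FPKM in sham IF. That difference was 0.07 ± 0.13. The AL pair did not overlap on day 21, at a difference of -0.22 ± 0.13, with 1.90, 1.71, 1.77 and 1.87 FPKM in BCAS AL against 2.47, 2.03, 1.98 and 2.64 FPKM in sham AL, in a comparison where 3.39% of genes did not overlap. Over all days, Myc was higher in BCAS IF than in sham IF on 5 of 5 days and lower in BCAS AL than in sham AL on 4 of 5 days.

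**Figure D1:**
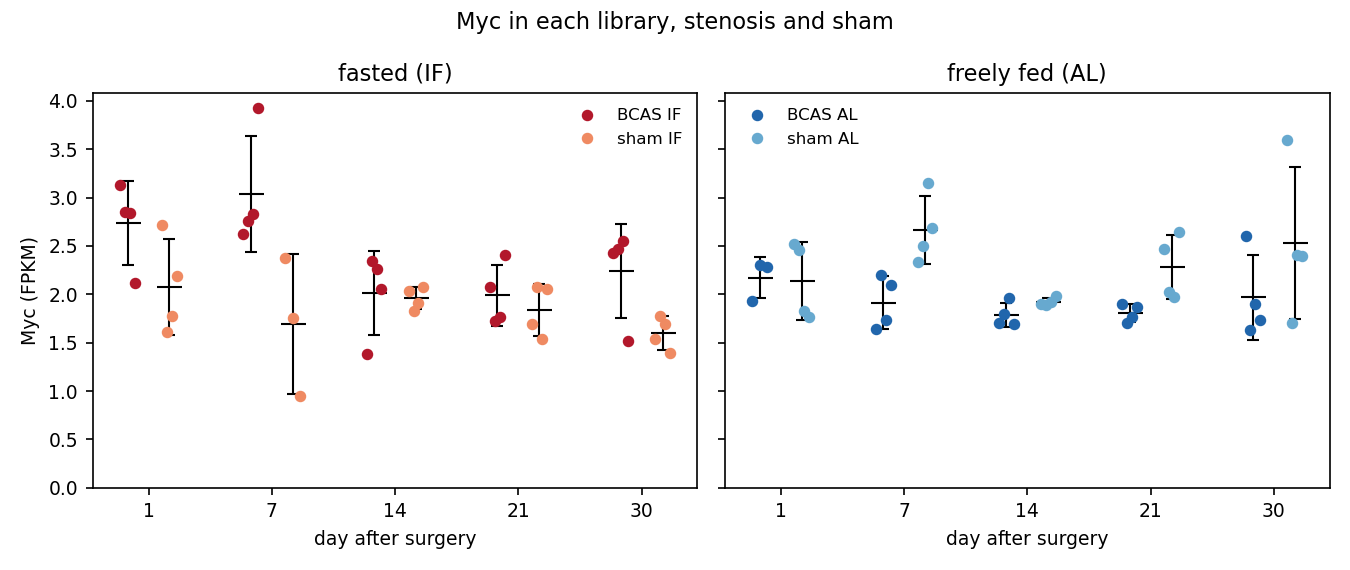
Myc level in FPKM in each library (points) by day after surgery, with the group mean and SD (black). Under IF (left) the BCAS mean lies above the sham mean most clearly on days 1, 7 and 30, and under AL (right) it lies below on days 7, 21 and 30.

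Among the 6 partners, the mean stenosis differences were smaller in size than those of Myc. They ran from -0.05 for Max to 0.07 for Mxd4 under IF, and from -0.05 for Mga to 0.03 for Mnt under AL. Myc was 1 member of 7 past the threshold under IF, where 0.758% of genes passed, and 0 of 7 passed under AL, where 0.987% passed. On day 7 under IF, Myc was again the 1 member past the threshold, beside 0.153% of genes. On the other days under IF, 0 of 7 passed, where 0.00637% of genes passed on day 1, 0.0% on days 14 and 21 and 0.0891% on day 30. Under AL, 0 of 7 passed on any day, where the shares of genes were 0.376%, 2.63%, 0.337%, 0.0% and 0.357% from day 1 to day 30. Since these contrasts chose Myc, nothing is read from these counts.

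Mxd4, which belongs to the MXD repressors and is known from cells that stop dividing and differentiate, came nearest to Myc. Its difference was 0.07 ± 0.04 under IF, higher in BCAS on 5 of 5 days, and -0.05 ± 0.04 under AL. Over the 20 group means Mxd4 had a Pearson r of 0.66 with Myc, the 6th highest of 11407 protein-coding genes compared with Myc, and these means include the groups that chose Myc. Between libraries of 1 group the same pair had an r of 0.06.

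**Figure D2:**
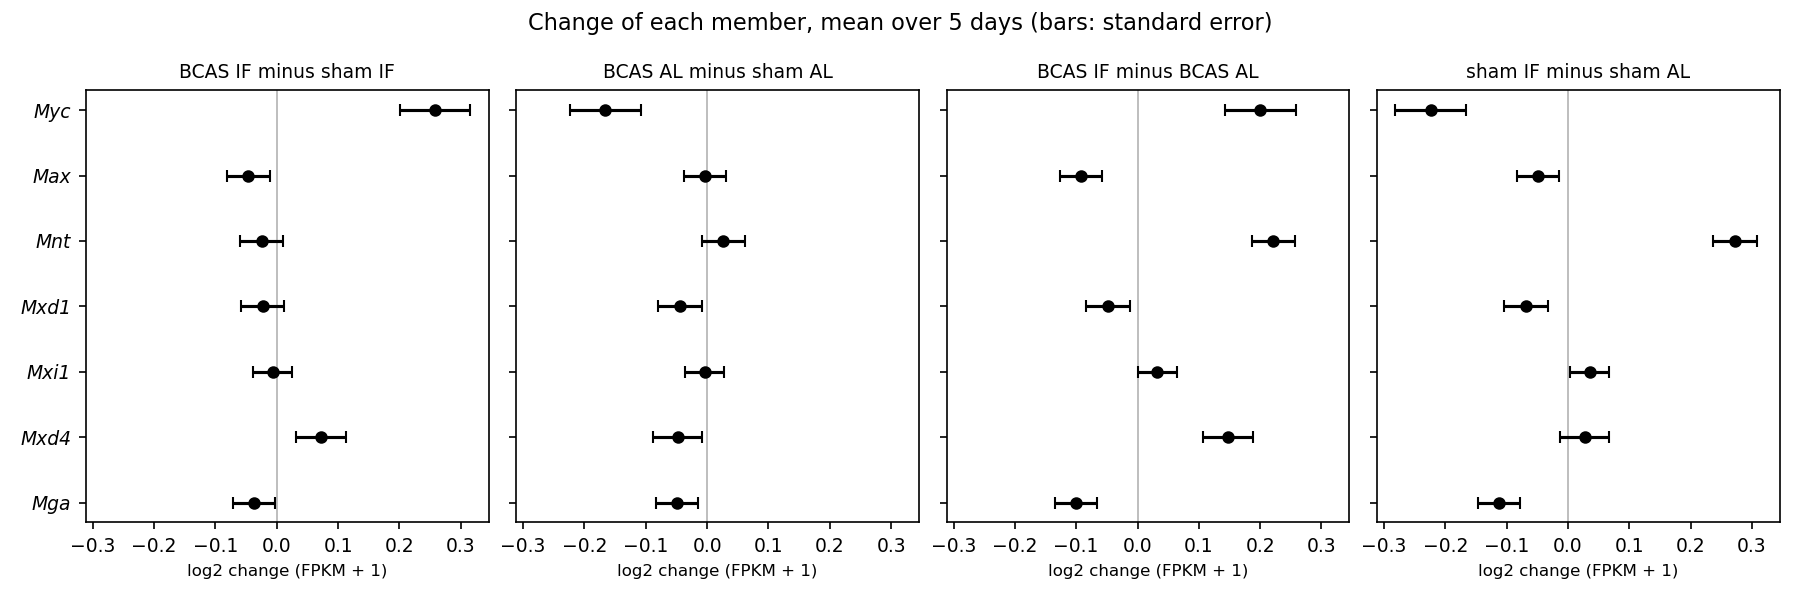
Mean log2 difference of each member over 5 days on the log2(FPKM + 1) scale, with its SE, for BCAS against sham under each diet and for IF against AL after each surgery. Myc is at 0.26 and -0.17 in the first 2 panels, and Mnt is at 0.22 and 0.27 in the last 2.

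Fasting, measured as IF against AL within each surgery, moved Mnt most firmly. Mnt encodes a widely expressed MAX-binding repressor. It averaged 9.04 ± 0.884 FPKM in BCAS IF (SD, n = 20) and 7.61 ± 0.747 FPKM in BCAS AL (n = 19). In sham mice it averaged 9.27 ± 1.21 FPKM in sham IF (n = 19) and 7.45 ± 0.752 FPKM in sham AL (n = 20). The log2 differences were 0.22 ± 0.04 after BCAS (adjusted p = 1.6e-06) and 0.27 ± 0.04 after sham (adjusted p = 1.4e-08, limma), each higher in IF on 5 of 5 days. Of the 6 partners, 4 passed after BCAS, where 23.1% of genes passed, and 2 passed after sham, where 23.7% passed.

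After sham surgery, Mnt on day 1 had 10.5, 11.6, 12.4 and 9.76 FPKM in sham IF, against 7.50, 8.74, 9.34 and 7.0 FPKM in sham AL. Every fasted library was above every fed one, as for 9.76% of genes that day. Day 14 also did not overlap, with 8.46, 9.95, 8.34 and 8.61 FPKM in sham IF against 7.47, 6.47, 7.03 and 6.14 FPKM in sham AL, where 11.9% of genes did not overlap. Day 21 had 9.38, 9.05, 9.72 and 9.07 FPKM in sham IF, against 7.59, 7.88, 7.16 and 6.78 FPKM in sham AL, again apart, as for 5.67% of genes. The differences passed on day 1 (0.40, adjusted p = 0.00103) and day 14 (0.34, adjusted p = 0.0041), but on day 21 the adjusted p was 0.0514 at a difference of 0.30. Of all genes, 3.67% passed on day 1, 4.39% on day 14 and 0.382% on day 21.

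Days 7 and 30 overlapped in sham. Mnt had 7.56, 8.87 and 9.18 FPKM in sham IF on day 7, against 6.94, 7.14, 6.98 and 8.02 FPKM in sham AL. It had 9.03, 7.95, 8.15 and 8.60 FPKM in sham IF on day 30, against 7.53, 7.31, 8.29 and 7.75 FPKM in sham AL. Neither difference passed (adjusted p = 0.106 and 0.487), on days when 9.05% and 4.82% of genes did.

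After stenosis, Mnt on day 1 had 9.92, 8.61, 9.44 and 10.8 FPKM in BCAS IF, against 7.07, 7.58 and 7.91 FPKM in BCAS AL, without overlap, as for 18.2% of genes. It had 8.97, 9.20, 8.05 and 10.6 FPKM in BCAS IF on day 7, against 7.01, 6.74, 8.21 and 7.04 FPKM in BCAS AL. It had 9.0, 7.70, 8.46 and 9.80 FPKM in BCAS IF on day 14, against 6.22, 6.66, 7.34 and 7.89 FPKM in BCAS AL. All 3 days passed, with differences of 0.33 (adjusted p = 0.0135), 0.31 (adjusted p = 0.0163) and 0.28 (adjusted p = 0.0194), beside 4.37%, 2.25% and 5.67% of genes on those days.

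By day 21 the fasted and fed values met after stenosis, at 8.23, 8.45, 7.97 and 8.06 FPKM in BCAS IF and 7.04, 8.42, 7.73 and 8.90 FPKM in BCAS AL, a difference of 0.03 on a day when 0.802% of genes passed. On day 30 they stood at 10.04, 8.95, 9.57 and 8.90 FPKM in BCAS IF and 8.34, 8.04, 7.67 and 8.84 FPKM in BCAS AL. That day did not overlap, as for 8.66% of genes, but the difference of 0.17 did not pass (adjusted p = 0.305), where 1.35% of genes did. The daily calls all ended when the fit held just the groups compared, with adjusted p from 0.0559 to 0.172, while the differences stayed the same. Each of the 3 calls after BCAS also ended on leaving out 1 library, namely BCAS IF replicate 4 or BCAS AL replicate 1 or 2 on any of the 3 days, or BCAS IF replicate 1 on day 14.

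**Figure D3:**
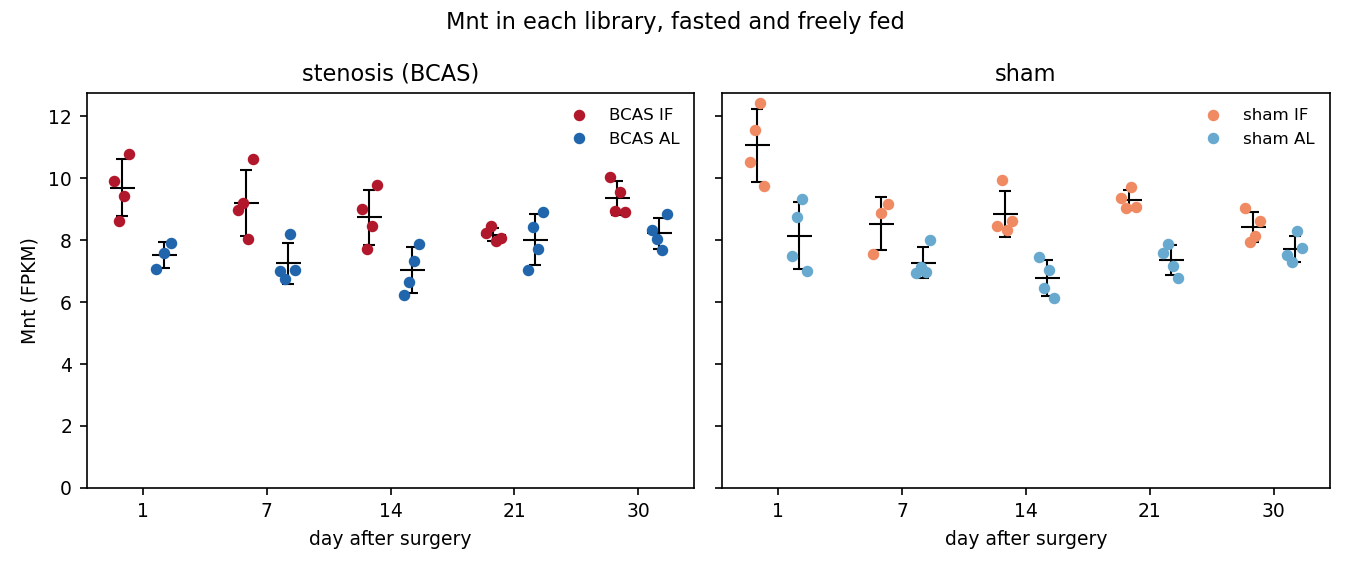
Mnt level in FPKM in each library (points) by day after surgery, with the group mean and SD (black), for BCAS (left) and sham (right). IF means lie above AL means on every day, least on day 21 after BCAS.

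The mean stenosis difference of Mnt was -0.02 ± 0.04 under IF and 0.03 ± 0.04 under AL. On day 21 under IF, the 4 BCAS libraries lay below the 4 sham libraries listed above, without overlap, as for 4.3% of genes. The plot of daily changes sets the Myc stenosis values beside the Mnt fasting values.

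**Figure D4:**
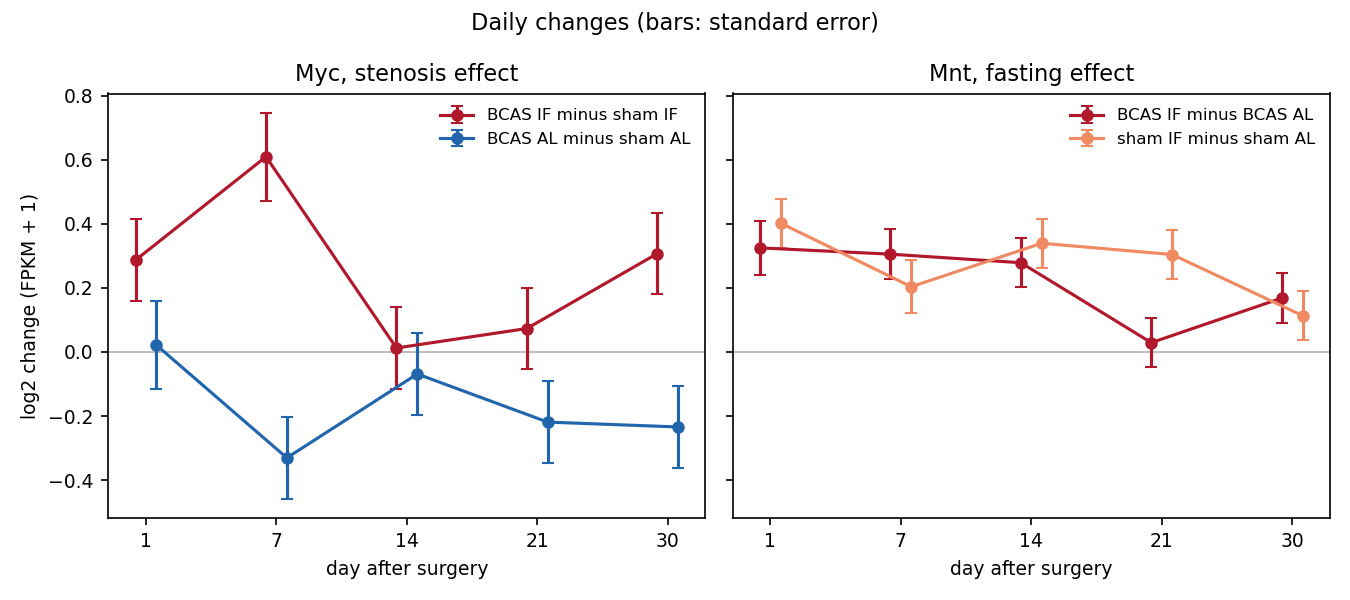
Daily log2 differences with SE, on the log2(FPKM + 1) scale. Myc, BCAS minus sham (left), reaches 0.61 under IF and -0.33 under AL on day 7; Mnt, IF minus AL (right), is above 0 on all 5 days after both surgeries, between 0.03 and 0.40.

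Mxd4 rose with fasting after stenosis, by 0.15 ± 0.04 (adjusted p = 0.00458, limma). Over days its lowest, median and highest values were 8.16, 9.43 and 12.6 FPKM in BCAS IF, against 6.67, 8.63 and 10.6 FPKM in BCAS AL, ranges that overlap. In sham mice the difference was 0.03 ± 0.04 (adjusted p = 0.673), at means of 9.24 FPKM in sham IF and 9.08 FPKM in sham AL. No single day passed for Mxd4. Whether the fasting effect differed between the surgeries is the same contrast as the difference of the stenosis effects, at 0.12 ± 0.06, and is given without a test.

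Mga fell slightly with fasting, by 0.10 on the log2 scale after BCAS (adjusted p = 0.0251) and by 0.11 after sham (adjusted p = 0.0118, limma). Its lowest, median and highest levels were 2.17, 2.41 and 2.91 FPKM in BCAS IF, against 2.23, 2.67 and 3.26 FPKM in BCAS AL. In sham they were 2.09, 2.51 and 2.90 FPKM in sham IF, against 2.19, 2.71 and 4.71 FPKM in sham AL. The sham value leaned on day 7, when Mga had 2.90, 2.45 and 2.09 FPKM in sham IF, against 2.70, 3.15, 2.68 and 4.71 FPKM in sham AL. The libraries at 3.15 and 4.71 FPKM are the 2 rich in short-gene fragments. Without those and the third such library, the sham difference was -0.07 (adjusted p = 0.0615) and the day 7 difference -0.09 (adjusted p = 0.615), against -0.29 (adjusted p = 0.0176) with them, on a day when 9.05% of genes passed. The sham call also ended without day 7 (-0.07, adjusted p = 0.0767) and with just the compared groups fitted. The BCAS difference was -0.10 without the 3 short-gene libraries (adjusted p = 0.00529), and it ended on leaving out BCAS AL day 1 replicate 1 or day 7 replicate 1, or with no filter on low values (adjusted p = 0.0503).

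Max averaged 19.1 ± 1.44 FPKM in BCAS IF and 20.3 ± 1.24 FPKM in BCAS AL (SD, n = 20 and 19). The difference of -0.09 ± 0.03 just passed (adjusted p = 0.045), lower in IF on 5 of 5 days. It ended with no filter on low values (adjusted p = 0.0959) and in 23 of 78 fits that left out 1 library, with adjusted p between 0.0225 and 0.0866. In sham, Max had 19.8 ± 1.30 FPKM in sham IF and 20.5 ± 2.14 FPKM in sham AL, and the difference of -0.05 did not pass (adjusted p = 0.328). Mxd1, a repressor of the MXD group, and Mxi1, its relative, did not pass after either surgery. Mxd1 had 2.30 FPKM in BCAS IF and 2.41 FPKM in BCAS AL, with an adjusted p of 0.368, and 2.36 FPKM in sham IF and 2.52 FPKM in sham AL, with an adjusted p of 0.158. Mxi1 had 16.1 FPKM in BCAS IF and 15.6 FPKM in BCAS AL, with an adjusted p of 0.52, and 16.1 FPKM in sham IF and 15.7 FPKM in sham AL, with an adjusted p of 0.456. The 95% intervals of these Mxi1 differences ran from -0.03 to 0.09 after BCAS and from -0.03 to 0.10 after sham.

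Myc itself differed between the diets by 0.20 ± 0.06 after BCAS and by -0.22 ± 0.06 after sham. On day 7 after BCAS the diets did not overlap, as for 8.53% of genes. The difference of those values equals the difference of the stenosis effects by which Myc was chosen, 0.42 ± 0.08, and all 4 contrasts share libraries, so the Myc diet values are a description. In fasted sham mice Myc was low while Mnt was high, so the ratio of Mnt to Myc averaged 5.29 ± 1.52 in sham IF and 3.35 ± 0.708 in sham AL. After stenosis the ratio averaged 3.96 ± 1.02 in BCAS IF and 4.03 ± 0.661 in BCAS AL. The summed level of Mxd1, Mxd4, Mxi1 and Mnt over that of Max was 1.96 ± 0.20 in BCAS IF, 1.88 ± 0.170 in sham IF, 1.69 ± 0.110 in BCAS AL and 1.71 ± 0.196 in sham AL. These RNA ratios say nothing of protein amounts.

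Time after surgery was tested within each arm by an F test over the 5 days. In sham IF, Mnt changed with day (adjusted p = 0.0189), with group means of 11.1, 8.54, 8.84, 9.31 and 8.43 FPKM on days 1, 7, 14, 21 and 30, in a test that 1.88% of genes passed. Day 1 held the highest mean, and leaving out sham IF day 1 replicate 2 or replicate 3 ended the call. In BCAS IF, Myc just passed (adjusted p = 0.0494, with 5.23% of genes), from the libraries that chose it, and 57 of 78 fits that left out 1 library lost it. In sham AL, Mga passed (adjusted p = 0.0422, with 17.3% of genes), but not without the short-gene libraries (adjusted p = 0.369). In BCAS AL, 0 of 7 members passed by limma, at an unadjusted p under 0.05 or by voom on recovered fragments, beside 4.48% of genes that passed.

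Members were also compared between libraries of 1 group, as deviations from the group mean over 78 libraries, in 21 pairs with a two-sided permutation test. The test shuffled all 78 deviations as if independent, although the mean of each group had been removed, so its p-values are too small. Calls near the threshold, such as Max and Mga below, may therefore not hold. Myc was in none of the pairs that passed. Its largest correlation over all libraries was with Mnt (r = -0.18, rho = -0.20, adjusted p = 0.34), and was -0.19 without the 3 short-gene libraries. With Mga it had an r of 0.17 (adjusted p = 0.37), and 0.23 without those libraries, then larger in size than with Mnt. Mxd4 and Mga varied together (r = 0.55, rho = 0.38, adjusted p = 0.00021 from the smallest p that 100000 permutations give). Sham AL day 7 replicate 4 was highest for both, at 13.8 FPKM of Mxd4 and 4.71 FPKM of Mga. Without the 2 libraries farthest from the median r was 0.38 (adjusted p = 0.013), and without the 3 short-gene libraries r was 0.35.

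Max and Mxi1 had an r of 0.37 (rho = 0.33, adjusted p = 0.01), and an r of 0.30 without the 2 farthest libraries (adjusted p = 0.063) and 0.26 without the 3 short-gene libraries. Max and Mga had an r of -0.30 (rho = -0.10, adjusted p = 0.049), which rested on the 2 farthest libraries and was -0.16 without them, or -0.05 without the 3 short-gene libraries. Among pairs that did not pass, Mnt and Mga had an r of -0.14 (adjusted p = 0.55). It was 0.05 after rescaling to the total fragments of each library, and -0.34 without the 3 short-gene libraries. Mxd1 and Mxi1 had an r of 0.28 (adjusted p = 0.063), and 0.35 without them. Mxi1 and Mga went the other way, from -0.21 (adjusted p = 0.26) to 0.01. These deviations share library depth and composition.

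The genes most like Myc over the 20 group means were Mfn1, which fuses mitochondria (r = 0.75), Bbs9 (0.71), Erg, an endothelial transcription factor (0.70), Rfx7 (0.67) and Wipi2, an autophagy protein (0.67), of 11407 protein-coding genes with a mean of at least 1 FPKM. Over the 78 deviations from group means they were other genes, Vcpip1 (0.53), Zw10 (0.45), Vsp35l (0.45), Scaf4 (0.43) and Cenpj (0.43). For Mnt the closest over group means were Tns2 and Qars (both 0.89), and for Mga they were Kmt2a, a histone methyltransferase (0.97), and Smg1 (0.92). Max was most like Kmt2d and Tmem184b (both 0.86), and Mxd4 most like Wwp1 (0.86) and Cyp4f17 (0.84). Mxi1 followed Anxa4 (0.85) and Clec1a (0.84), and Mxd1 followed C2cd2l (0.79) and Fam131a (0.76). These values rank genes and share libraries, so they carry no test.

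In the rest of the network, Mycn, Mycl and Mxd3 were thin in these arteries, and Mlx was not. Mycn and Mycl, the other MYC genes, averaged below 0.08 FPKM in every arm, and Mxd3, a repressor linked to dividing cells, had 0.256 FPKM in BCAS IF, 0.126 FPKM in sham IF, 0.228 FPKM in BCAS AL and 0.135 FPKM in sham AL. These 3 did not pass the filter. Mlx, which replaces MAX as partner in the glucose-sensing branch with MondoA and ChREBP, had 9.21 ± 1.15 FPKM in BCAS IF and 11.0 ± 0.772 FPKM in BCAS AL. It had 9.60 ± 0.848 FPKM in sham IF and 12.04 ± 1.56 FPKM in sham AL. Mlx fell with fasting, by 0.24 after BCAS (adjusted p = 2.1e-05) and by 0.29 after sham (adjusted p = 6.4e-07, limma), while Mlxip and Mlxipl, which encode MondoA and ChREBP, did not pass.

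In the mean stenosis effect, 0 of 20 nucleolar targets and 0 of 20 metabolic targets of MYC passed under either diet by limma or by voom, where 0.758% of all genes passed under IF and 0.987% under AL. At an unadjusted p under 0.05 there were 2 nucleolar and 1 metabolic genes under IF, and 0 nucleolar and 2 metabolic genes under AL. The list medians were -0.03 and 0.00 under IF, and 0.00 and 0.01 under AL. Over all lists, 2 of 127 listed genes, not all of which could be tested, passed under each diet by limma, and both rose: Ndrg1 and Txnip. By voom, 2 of 8 genes that MYC is known to repress passed under IF, where limma called 1. Ndrg1, a stress and differentiation gene that MYC is known to repress, had 77.7 ± 6.23 FPKM in BCAS IF and 70.5 ± 3.83 FPKM in sham IF, and 76.0 ± 5.17 FPKM in BCAS AL and 65.2 ± 4.41 FPKM in sham AL. Its differences were 0.14 under IF (adjusted p = 0.00201) and 0.21 under AL (adjusted p = 5.4e-07), the same direction under both diets.

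With fasting, of 20 nucleolar and ribosome assembly genes, 1 rose and 9 fell after BCAS, and 1 rose and 7 fell after sham, where 11.2% and 11.8% of all genes rose and 11.9% and 11.9% fell. The medians were -0.10 and -0.08. Nolc1, a nucleolar phosphoprotein, had 7.90 ± 0.687 FPKM in BCAS IF and 9.45 ± 0.63 FPKM in BCAS AL, a difference of -0.24 ± 0.03 (adjusted p = 5.4e-09). Ddx21, an RNA helicase, had 7.58 FPKM in BCAS IF and 8.99 FPKM in BCAS AL (-0.22, adjusted p = 1.6e-05), and 7.93 FPKM in sham IF and 9.26 FPKM in sham AL (-0.20, adjusted p = 8.5e-05). Ncl, which encodes nucleolin, went the other way, with 25.1 FPKM in BCAS IF and 22.7 FPKM in BCAS AL (0.14, adjusted p = 4.2e-08).

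Of 20 tested metabolic and growth targets, 0 rose and 6 fell after BCAS, and 2 rose and 4 fell after sham. The 6 genes called after each surgery stand beside 23.1% of all genes called after BCAS and 23.7% after sham, which is close to the share in the list, with list medians of -0.06 and -0.04. Hspd1, the mitochondrial chaperonin, had 49.5 ± 4.78 FPKM in BCAS IF and 64.6 ± 7.37 FPKM in BCAS AL (-0.37, adjusted p = 5.6e-11). It had 51.4 ± 6.11 FPKM in sham IF and 66.2 ± 8.61 FPKM in sham AL (-0.35, adjusted p = 4.0e-10). Eif4e, the cap-binding translation factor, fell by 0.16 after both surgeries (adjusted p = 0.000186 and 0.000352). Srm, which makes spermidine, fell by 0.22 after BCAS (adjusted p = 0.00109) and Cad, which starts pyrimidine synthesis, by 0.12 (adjusted p = 0.00347). After sham, Ptma and Tfrc were the 2 that rose. The E-box was in the windows of 10 of 19 metabolic targets (52.6%) and of 1 of 15 nucleolar targets (6.67%), beside 8.91% of protein-coding genes. Both lists were chosen as known MYC targets, so these shares describe the lists and not a response.

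Of 8 genes that MYC is known to repress, 3 rose and 3 fell after BCAS, and 4 rose and 1 fell after sham, beside 11.2% and 11.8% of all genes that rose and 11.9% that fell after each. Cdkn1a, the p53-induced cell cycle inhibitor, had 12.03 ± 2.80 FPKM in BCAS IF and 22.9 ± 8.02 FPKM in BCAS AL (-0.86 ± 0.09, adjusted p = 1.4e-11). It had 13.4 ± 2.71 FPKM in sham IF and 20.6 ± 5.37 FPKM in sham AL (-0.58, adjusted p = 9.35e-07). Ndrg2 rose, with 129 FPKM in BCAS IF and 109 FPKM in BCAS AL (0.25, adjusted p = 1.9e-08), and Cdkn1c rose by 0.21 (adjusted p = 0.00141).

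Of 22 immediate early genes other than Myc, 2 rose and 7 fell after BCAS, and 2 rose and 9 fell after sham, with medians of -0.14 and -0.18. Of all genes, 11.2% rose and 11.9% fell after BCAS, and 11.8% rose and 11.9% fell after sham. Ier5 fell most firmly, with 12.4 ± 2.25 FPKM in BCAS IF and 20.4 ± 2.24 FPKM in BCAS AL (-0.69, adjusted p = 1.6e-17). Klf4 had 23.8 ± 4.84 FPKM in BCAS IF and 33.2 ± 5.95 FPKM in BCAS AL (-0.46, adjusted p = 2.1e-06). Fosl2 and Nr4a2 also fell, by 0.35 and 0.42 after BCAS (adjusted p = 0.000198 and 0.00119). Egr1 rose, by 0.34 ± 0.12 after BCAS (adjusted p = 0.0295) and 0.31 ± 0.12 after sham (adjusted p = 0.0466), and is named after its values were seen. In the mean stenosis effect 0 of these 22 genes passed by limma or by voom under either diet, with 3 at an unadjusted p under 0.05 and a median of 0.04 under each.

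**Figure D5:**
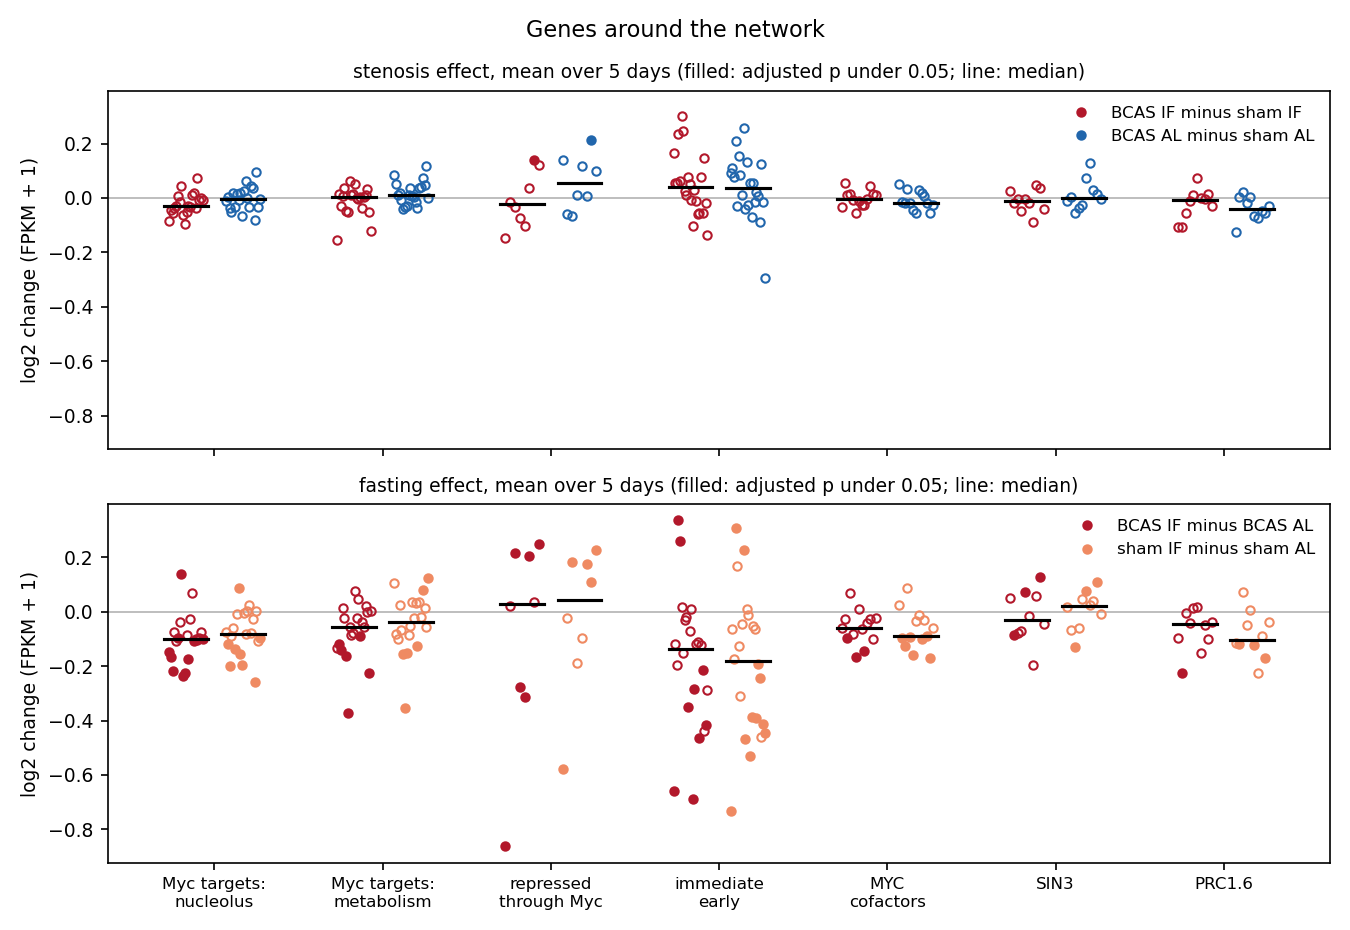
Log2 difference on the log2(FPKM + 1) scale of each tested gene (points) in 7 gene lists, mean over 5 days, for BCAS against sham (top) and IF against AL (bottom). Filled points passed an adjusted p of 0.05 and lines are list medians; the nucleolar and immediate early medians lie below 0 in the bottom panel, between -0.18 and -0.08.

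Of 13 MYC cofactors, 0 rose and 3 fell after BCAS, and 0 rose and 7 fell after sham, where 11.2% and 11.8% of all genes rose and 11.9% fell after each. The cofactor medians were -0.06 after BCAS and -0.09 after sham, beside 0.00 and 0.01 for all genes. The falls were led by Kat2a, a histone acetyltransferase (-0.17, adjusted p = 0.00079), after BCAS and by Ccnt1, a cyclin of the elongation kinase (-0.13, adjusted p = 0.000269), after sham. Of 10 SIN3 complex genes, 2 rose and 1 fell after each surgery, which is near those shares. Sin3b, a scaffold that MNT and MXD proteins recruit, had 10.1 ± 0.741 FPKM in BCAS IF and 9.17 ± 0.708 FPKM in BCAS AL (0.13, adjusted p = 0.00113), and 9.82 ± 0.678 FPKM in sham IF and 9.04 ± 0.864 FPKM in sham AL (0.11, adjusted p = 0.00586). Of 10 genes of the MGA complex PRC1.6, 0 rose, and 1 fell after BCAS, near the share of all genes, and 3 after sham. E2f6, its DNA-binding repressor, had 4.10 FPKM in BCAS IF and 4.94 FPKM in BCAS AL (-0.23, adjusted p = 1.5e-05). Of 10 genes that control MYC protein turnover, 1 fell after BCAS and 3 after sham, the same counts, and Ppp2ca, a phosphatase subunit, fell in both, by 0.10 (adjusted p = 0.00142) and 0.12 (adjusted p = 0.000144).

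Of 5 targets of the MLX branch, 2 rose and 1 fell with fasting after each surgery, too few genes to set beside the shares of all genes. Txnip, the classic glucose-responsive target of MondoA, had 136 ± 32.3 FPKM in BCAS IF and 89.5 ± 11.0 FPKM in BCAS AL (0.55 ± 0.05, adjusted p = 5.2e-15). It had 117 ± 22.0 FPKM in sham IF and 77.4 ± 5.84 FPKM in sham AL (0.57, adjusted p = 1.5e-15). Txnip also rose with stenosis, by 0.19 under IF (adjusted p = 0.0228) and 0.21 under AL (adjusted p = 0.00761). Without day 7 the Txnip stenosis differences were 0.10 under IF (adjusted p = 0.586) and 0.19 under AL (adjusted p = 0.0585), and the IF call also ended without BCAS IF day 1 replicate 1 (adjusted p = 0.0546). Arrdc4, another MondoA target, rose with fasting by 0.24 after BCAS (adjusted p = 0.000989), and Fasn, the fatty acid synthase, fell by 0.10 (adjusted p = 0.0148).

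Cell type markers gave the makeup of the samples beside these results. Of all genes, 23.1% passed with fasting after BCAS and 23.7% after sham, which stand beside the marker counts here. With fasting, 0 of 6 smooth muscle markers passed after either surgery by limma or by voom, with 0 after BCAS and 1 after sham at an unadjusted p under 0.05. Of 6 macrophage markers, 2 rose after each, Cd68 by 0.27 after BCAS and 0.28 after sham, and Cd163 by 0.41 and 0.24, and by voom 2 passed after BCAS and 1 after sham. The 6 macrophage markers together summed to 236 to 406 FPKM in BCAS IF, 276 to 399 FPKM in sham IF, 260 to 361 FPKM in BCAS AL and 228 to 372 FPKM in sham AL. Of 5 fibroblast markers, 2 rose after BCAS and 1 after sham, Lum in both, and by voom 1 passed after each. Of the other vessel and brain markers, 1 of 5 in the pericyte list rose after sham, Kcnj8 (0.26). In the endothelium list 1 of 6 fell after BCAS, Kdr (-0.25). In the astrocyte list 1 of 5 fell after both, Gja1 (-0.26 and -0.27). Nothing about a cell type is read from 1 gene of its list. No red cell, neuron, oligodendrocyte or neutrophil marker passed with fasting by limma or by voom, but all 5 red cell markers had an unadjusted p under 0.05 after BCAS, with a median sum of 86.0 FPKM in BCAS IF and 200.2 FPKM in BCAS AL. Of 2 proliferation markers that could be tested, Mcm2 and Mcm5, 2 rose with fasting after BCAS by limma and 1 by voom, and 0 passed after sham by limma, by voom or at an unadjusted p under 0.05. The 6 proliferation markers summed to 3.54 to 7.30 FPKM in BCAS IF, 3.37 to 4.71 FPKM in sham IF, 2.81 to 7.34 FPKM in BCAS AL and 2.93 to 5.21 FPKM in sham AL, with Ccnb1 below 0.1 FPKM in the mean.

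On day 7, where Myc was farthest apart, the proliferation markers summed to 5.65 to 7.30 FPKM in BCAS IF and 4.02 to 4.71 FPKM in sham IF, and to 4.86 to 7.34 FPKM in BCAS AL and 3.41 to 5.21 FPKM in sham AL. The sums were higher after BCAS without overlap under IF, where 6.58% of single genes did not overlap on that day. Under AL the ranges overlapped. Of the markers in these sums, just Mcm2 and Mcm5 passed the filter, and a link to Myc was not tested. With stenosis in the mean over days, 1 of 6 endothelial markers rose under IF, Pecam1 by 0.23, where 0.758% of genes passed. Under AL 2 of 6 rose, Pecam1 and Cldn5, both by 0.25, where 0.987% of genes passed. In the pericyte list 1 of 5 rose under AL, Notch3 by 0.28, and 0 of 5 passed under IF. The 6 endothelial markers summed to 466.1 to 808 FPKM in BCAS IF and 478 to 711 FPKM in sham IF, and to 543 to 917 FPKM in BCAS AL and 432 to 670 FPKM in sham AL. No marker in the 11 lists was at 0 in every library. The part of cell makeup in the Myc, Mnt and target differences was not tested.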

How the data were processed

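RNA sequencing of cerebral arteries gave 78 libraries in 20 groups. Per the labels' protocols, Novogene made the libraries from 2 ug of total RNA extracted with an RNeasy kit. The authors deposited FPKM values with a gene length and position for each gene, per the file headers. Per the submitters' processing notes DESeq 1.10.1 was among the tools, at a step they leave unnamed, and the aligner, counter, build and annotation release are not given in the sources used here. Positions matched GRCm38 annotation (GENCODE M21) for 98.3% of 54495 shared identifiers. FPKM times length came out as whole multiples of 1 step within 0.05 for 100% of values under 1000 fragments, which gave the depth of each library. The deposited values were already on a common scale, with median-ratio factors between 1.00 and 1.01.

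Log2(FPKM + 1) was tested with limma 3.58.1 (trend, robust; R 4.3.3, statmod 1.5.0) over the 15707 genes that reached 1 FPKM in 3 or more libraries. A single model had a mean for each of 20 groups, and Benjamini-Hochberg adjustment covered every gene tested. Errors of log2 differences are standard errors. On data simulated for IF against AL in sham over 15707 genes, 70% of changes of 0.25 and 94% of changes of 0.5 were recovered, with 13 false calls.

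The members, lists and markers were chosen with earlier results of these data known. Named genes were all members, up to 4 per list with the smallest p in a described contrast, and the genes with the highest r with each member (5 for Myc, 2 for the others). A planned comparison of protein sequences was not run. Alternatives were another pseudocount, no filter, 2 rescalings, limma-voom on recovered fragments, fits of the compared groups alone, means without day 7, and leaving out libraries.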

Additional observations from a re-analysis of the deposited data

Results flagged for a closer look

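Of 126 sets of 4 libraries of 1 member in 1 group, 5 had a library far from the other 3, and chance gives about 1 in 20. Myc in BCAS IF on day 7 had replicate 4 at 3.93 FPKM, above the others at 2.62 to 2.84 FPKM. Myc in BCAS IF on day 30 had replicate 4 at 1.52 FPKM, below the others at 2.43 to 2.55 FPKM. Mxd1 in BCAS IF on day 30 had replicate 1 at 1.98 FPKM, with the others at 2.34 to 2.40 FPKM. Mxi1 in sham AL on day 30 had replicate 3 at 14.7 FPKM, with the others at 15.6 to 15.7 FPKM. Mnt in sham IF on day 14 had replicate 2 at 9.95 FPKM, with the others at 8.34 to 8.61 FPKM. The cause of these gaps was not tested.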

How the results depend on the processing

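No paired analysis was possible because the labels give no replicate numbers. None of the Myc, Max, Mnt, Mxd4 and Mga differences checked changed sign under any alternative run. Some correlations that did not pass did change sign. Mxi1 and Mga went from -0.21 to 0.01 without the 3 short-gene libraries, and Mnt and Mga from -0.14 to 0.05 after rescaling to total fragments. The Mnt differences between diets stayed past the threshold in all alternatives, from 0.20 to 0.25 after BCAS and from 0.26 to 0.30 after sham. The Myc stenosis difference ranged from 0.17 to 0.39 under IF and from -0.25 to -0.13 under AL, and their difference of 0.42 was 0.30 without day 7 and 0.63 by voom on recovered fragments, with 0.38 to 0.46 when 1 library was left out. On day 7 under IF, the Myc difference of 0.61 was 0.88 with a pseudocount of 0.1 and 1.04 by voom, with 0.39 to 0.79 when 1 library was left out.

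Myc is counted below wherever it passed, but its values are a description, since these libraries chose it. Members past the threshold for IF against AL in BCAS numbered 5, Myc and 4 partners, beside 23.1% of genes. They were 3 with no filter on low values, and 3 to 5 with 1 library left out (3 without BCAS AL day 1 replicate 1). For IF against AL in sham, 3 members passed, Myc and 2 partners, beside 23.7% of genes. The other alternatives gave 2 or 3, and Mga was lost without day 7, without the 3 short-gene libraries or with just the compared groups. Member and day calls numbered 4 in BCAS, beside 0.802% to 5.67% of genes by day, and 5 in sham, beside 0.382% to 9.05%. Myc was among the calls on day 7 in both and on day 30 in sham. Both counts were 0 with just the compared groups, and 2 to 5 in BCAS and 3 to 7 in sham with 1 library left out. The day test in BCAS IF gave 1 member, Myc, beside 5.23% of genes. It gave 0 with a pseudocount of 0.1, with no filter or with just the compared groups. It gave 3 after rescaling to total fragments (added after seeing the data), by voom or without the 3 short-gene libraries (0 to 3 with 1 library left out). In sham IF it gave 1, and 0 with just the compared groups (0 to 1). In sham AL it gave 1, but 0 with no filter, without the 3 short-gene libraries or with just the compared groups, and 2 after the total rescaling or by voom (0 to 2). List genes past the threshold with stenosis numbered 2 under IF, and 1 with no filter, without day 7 or with just the compared groups (1 to 3), and 2 under AL, and 1 without day 7. Of 3 pairs that passed the permutation test, whose p-values are too small, 1 remained without the 2 farthest libraries. Without the 3 short-gene libraries the count was again 3, but not of the same pairs, since Max and Mga then had an r of -0.05. Except where a construction uses fewer genes or samples, the cause was not tested. At 55 to 239 fragments, counting error limits each Myc value.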
